A study of Rattus norvegicus with 71 samples.

Results

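Choroid-plexus-rich and choroid-plexus-poor brain slices were compared in 24 of the 43 RNA-seq libraries that make up the second sequencing batch of a series of 71. The 43 libraries were ordered by CPM (the count of a gene scaled to the total of its library) of Ttr, the gene of the thyroid hormone carrier transthyretin. The 12 libraries with the highest Ttr formed the rich set and the 12 with the lowest formed the poor set. Ttr therefore chose the sets, and its own difference between them is given only as a description. The other 19 libraries of the batch, called the middle libraries here, were left between the sets by the same order, and the 28 libraries of the first batch stood outside it.

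Each library was made from polyadenylated RNA of 1 Sprague-Dawley rat pup at postnatal day (PND) 2, taken from a coronal slice of about 150 µm. All pups were wild type. Control dams had been given saline with adjuvant, and the other dams had been immunized before mating with peptides of the antigens CRMP1+CRMP2, STIP1+NSE, CRMP1+GDA or LDHA/B+CRMP1+STIP1, so that maternal autoantibody related autism (MARA) antibodies could reach the offspring. The second batch held 12 control libraries from 4 litters, 8 CRMP1+CRMP2 libraries from 4, 8 STIP1+NSE libraries from 4, 6 CRMP1+GDA libraries from 3 and 9 LDHA/B+CRMP1+STIP1 libraries from 5, whereas the first batch held 12 control and 16 LDHA/B+CRMP1+STIP1 libraries from 7 litters. Pups of a litter shared a dam and its exposure and are not independent.

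The choroid plexus is a folded sheet of secretory epithelium, lying over a core of vessels and stroma, that hangs in the brain ventricles and makes cerebrospinal fluid. Its cells move ions, bicarbonate and water from blood to ventricle, are closed by tight junctions, carry cilia, and secrete transport proteins for thyroid hormone, retinol, iron and growth factors. It arises at the dorsal midline beside the cortical hem, so a coronal slice can hold much or little of it. In bulk RNA, fewer choroid plexus cells in a slice and less RNA per cell cannot be told apart.

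Ttr ran from 1410 to 3114 CPM in the rich set (median 1910), from 474.2 to 1399 CPM in the middle libraries (median 972) and from 119.6 to 442.8 CPM in the poor set (median 316.5). The edges of the sets were not gaps. Library 12 of the order had 1410 CPM and library 13 had 1399 CPM, while library 31 had 474.2 CPM and library 32 had 442.8 CPM. In the first batch Ttr was far lower in most libraries, with a median of 14.74 CPM and a range of 0.1304 to 525.6 CPM.

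**Figure D1:**
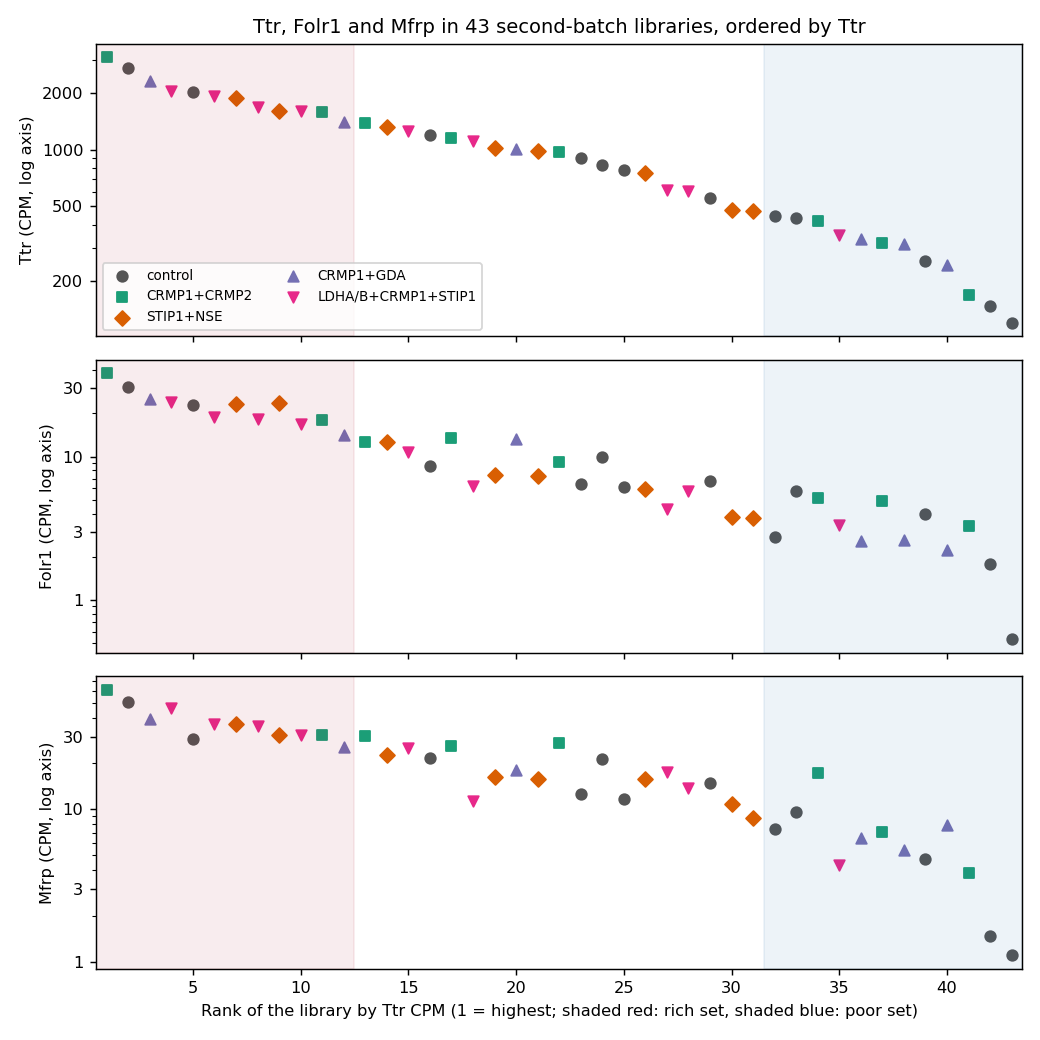
Ttr (top), Folr1 (middle) and Mfrp (bottom) in CPM on log axes in the 43 second-batch libraries, ordered from the highest to the lowest Ttr, with 1 point per library and a symbol for each autoantibody label. The shaded ends are the rich set (12 libraries, Ttr from 1410 CPM) and the poor set (12 libraries, Ttr up to 442.8 CPM). Folr1 and Mfrp did not choose the sets, and their lowest values in the rich set (14.2 and 25.5 CPM) lie above their highest in the poor set (5.71 and 17.3 CPM).

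Total counts per library ran from 24880182 to 36234952 over the 43 libraries, with a median of 30482782 in the rich set and 28061150 in the poor set. Some libraries held RNA of neighbouring structures. Tph1, which marks the pineal gland, exceeded 1 CPM in 2 rich, 5 middle and 2 poor libraries. It reached 188.8 CPM in the rich library with the highest Ttr (CRMP1+CRMP2 replicate 2). Its maximum was 59.8 CPM in the middle libraries and only 1.65 CPM in the poor set. Hoxb7 or Hoxb8, patterning genes of the caudal nervous system, exceeded 1 CPM in 1 rich, 2 middle and 3 poor libraries. Pmch, which marks lateral hypothalamic neurons, was listed at 0 in all 71 libraries.

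The first question was whether the sets differed in exposure. The rich set held 2 of the 12 control libraries, 2 of 8 CRMP1+CRMP2, 2 of 8 STIP1+NSE, 2 of 6 CRMP1+GDA and 4 of 9 LDHA/B+CRMP1+STIP1. The poor set held 5 control, 3 CRMP1+CRMP2, 3 CRMP1+GDA and 1 LDHA/B+CRMP1+STIP1 library, and no STIP1+NSE library. A permutation test of set against label over the 24 libraries, two-sided with 100000 resamples, gave p = 0.298. That test took littermates as independent, and permuting the labels over the 15 litters of the sets, with littermates kept together, gave p = 0.552. The rich set held 5 males and 7 females and the poor set 7 males and 5 females (Fisher's exact test, two-sided, p = 0.684).

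Because dams were exposed, litters were compared on genes that the ranking did not use. Over the 16 exposed and 4 control litters, the litter mean of log2(CPM + 1) for Folr1 was 3.30 ± 0.888 (SD, n = 16) and 2.99 ± 1.24 (SD, n = 4), a difference of 0.31 (exact permutation test, two-sided, p = 0.572). Single control litters decided its size, since it was 0.905 without control litter 1 (exact permutation p = 0.118), 0.0335 without control litter 2 (exact permutation p = 0.954) and 0.0295 without control litter 3 (exact permutation p = 0.960). For Mfrp the means were 4.25 ± 0.787 (SD, n = 16) and 3.63 ± 1.204 (SD, n = 4), a difference of 0.62 (exact permutation p = 0.220, adjusted over both genes 0.439). Control litter 1, both of whose pups were in the rich set, decided the size of the Mfrp difference: without it the difference was 1.18 (exact permutation p = 0.0248). Across the 5 labels the litter means differed with p = 0.944 for Folr1 and p = 0.691 for Mfrp (permutation tests with 100000 resamples).

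The amount of Ttr went partly with the litter. The 12 rich libraries came from 7 litters and the 12 poor libraries from 9. In 5 litters more than 1 pup was in the rich set, and these litters gave 10 of the 12 rich libraries. Littermates could also be far apart: the ratio of the highest to the lowest Ttr within a litter ran from 1.14 to 9.996, with a median of 2.07 over 19 litters, and was above 2 in 11 of them. A single CRMP1+CRMP2 litter had a pup in each set.

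**Figure D2:**
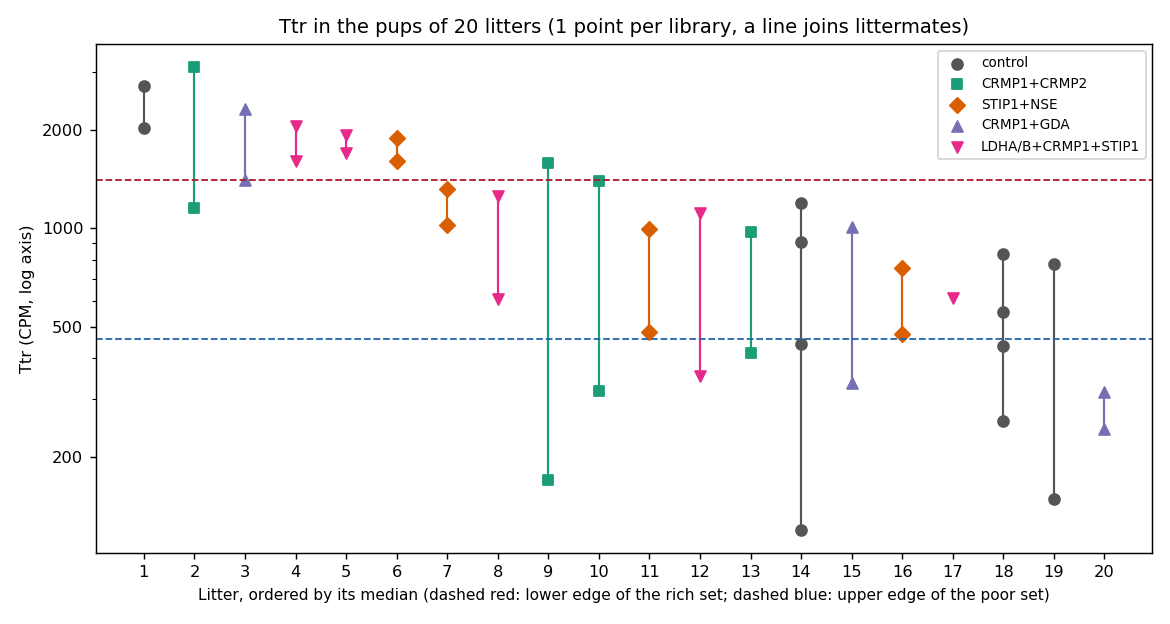
Ttr in CPM on a log axis for the pups of the 20 second-batch litters, ordered by litter median, with 1 point per library, a symbol per autoantibody label and a line joining littermates. Dashed lines mark the edges of the sets. Of 19 litters with more than 1 pup, 11 span more than a 2-fold range of Ttr, and 1 reaches into both sets.

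Gene expression was compared between the rich and the poor set with edgeR's quasi-likelihood test on counts, with sex as a covariate, over 12178 genes that reached 1 CPM in at least 8 of the 24 libraries. Adjusted p-values are Benjamini-Hochberg values over all these genes, and a gene was called at an adjusted p under 0.1. Fold changes are log2 values, rich minus poor, ± SE. At this threshold 2660 genes (21.8%) were higher in the rich set and 2668 (21.9%) were lower. Gene ranges that did not overlap between the sets were much rarer, with 47 genes higher (0.386%) and 12 lower (0.0985%). Since the sets were cut on Ttr in these same libraries, calls in this comparison describe which genes went with Ttr.

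The 2 epithelial markers set beside Ttr separated the sets without overlap. Folr1 encodes the folate receptor that carries folate across the choroid plexus epithelium, and lies at chr1:156219460-156230667 on the minus strand of rn7. It was measured at 14.2 to 37.99 CPM in the rich set (median 23.2) and at 0.532 to 5.71 CPM in the poor set (median 3.01). The fold change was 2.88 ± 0.234 (edgeR adjusted p = 1.22e-08). Mfrp encodes a membrane protein with a frizzled-like domain, and lies at chr8:44445697-44450859 on the plus strand of rn7. It was measured at 25.5 to 60.9 CPM in the rich set (median 35.8) and at 1.101 to 17.3 CPM in the poor set (median 5.94), a fold change of 2.58 ± 0.286 (edgeR adjusted p = 1.93e-06). Per 1000 CPM of Ttr, Folr1 had a median of 11.3 CPM in the rich, 7.92 in the middle and 10.7 in the poor libraries. The same ratio of Mfrp had medians of 19.1, 20.1 and 18.8, with the widest range, 9.21 to 41.6, in the poor set.

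Promoters are shown for 3 epithelial genes, Mfrp, Kl and Slco1a5, whose slope on Ttr was called in the first batch whichever single library was left out (described further on) and which had an entry in the promoter table. They are RefSeq sequences of build GRCr8, 5′ to 3′ on the strand of the gene, from 250 bases before to 50 bases after the start. Mfrp is at chr8:53342284-53342583 on the plus strand, Kl at chr12:5325753-5326052 on the plus strand and Slco1a5 at chr4:176963763-176964062 on the minus strand. Capitals mark a match, on the opposite strand, to TAATCC, the core bound by OTX2-type homeodomain factors.
Mfrp: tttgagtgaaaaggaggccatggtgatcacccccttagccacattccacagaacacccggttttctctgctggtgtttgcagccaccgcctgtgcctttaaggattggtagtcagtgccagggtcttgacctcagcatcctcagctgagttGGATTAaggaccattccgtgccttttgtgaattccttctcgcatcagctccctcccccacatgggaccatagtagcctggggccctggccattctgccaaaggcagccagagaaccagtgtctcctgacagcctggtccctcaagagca
Kl: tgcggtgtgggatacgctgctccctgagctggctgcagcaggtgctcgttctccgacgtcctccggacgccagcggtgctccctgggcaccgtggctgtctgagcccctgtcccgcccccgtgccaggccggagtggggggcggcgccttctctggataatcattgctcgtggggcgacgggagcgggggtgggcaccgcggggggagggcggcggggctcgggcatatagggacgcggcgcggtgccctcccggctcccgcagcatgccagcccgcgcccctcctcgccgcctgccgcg
Slco1a5: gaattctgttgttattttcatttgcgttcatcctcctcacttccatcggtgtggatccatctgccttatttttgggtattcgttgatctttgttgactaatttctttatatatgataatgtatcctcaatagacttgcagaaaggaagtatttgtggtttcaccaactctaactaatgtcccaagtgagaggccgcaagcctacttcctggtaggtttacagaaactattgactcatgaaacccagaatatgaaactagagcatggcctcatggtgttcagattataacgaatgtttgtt
TAATCC was searched on both strands. It was found in the Mfrp window and in neither of the others. Among all 27457 promoters of this length 1952 held it (7.11%), as did 4 of the 58 choroid plexus list genes with a promoter (6.90%). GTTGCC, a half-site of RFX factors, which act on cilia genes, was found in 3343 promoters (12.2%) and in 7 of the 58 (12.1%).

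Known epithelial genes were grouped in 4 lists of 91 genes in all. Of these, 87 were in the table and 81 were tested; Slc39a4, Prlr, Lbp, Chi3l1, Il13ra2 and Vil1 were under the filter. Of the 81, 59 were higher in the rich set, 3 were lower and 19 were not called, against 21.8% higher and 21.9% lower over all genes. Their median fold change was 0.74, against 0.01 for all genes tested. Of the 81, 23 were higher without overlap between the sets, against 0.386% of all genes. With only the 7 control libraries of the sets (2 rich, 5 poor), 37 were called higher, against 962 of 12178 over all genes. The 2 rich control libraries were littermates, so the rich side of that fit was a single litter.

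The transport genes, which move ions, water and solutes across the epithelium, held 24 of the 59 higher genes. Of 33 tested, 24 were higher, 1 was lower and 13 did not overlap, with a median fold change of 0.78. Clic6, a chloride channel protein, was at 19.3 to 44.6 CPM in the rich set (median 26.003) and at 0.304 to 12.2 CPM in the poor set (median 4.53), a fold change of 2.58 ± 0.373 (edgeR adjusted p = 4.22e-05). Aqp1, the water channel of the apical membrane, was at 26.5 to 56.9 CPM (median 35.9) against 2.02 to 15.4 CPM (median 5.78), a fold change of 2.61 ± 0.241 (edgeR adjusted p = 1.02e-07). Neither gene overlapped between the sets.

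Kl, which encodes klotho, a co-receptor for fibroblast growth factor, was at 11.4 to 33.6 CPM in the rich set and at 0.304 to 8.99 CPM in the poor set, a fold change of 2.82 ± 0.377 (edgeR adjusted p = 1.58e-05). Slco1a5, an organic anion transporter, was low but separate, at 3.86 to 12.8 CPM against 0.0759 to 3.02 CPM, with a fold change of 2.91 ± 0.382 (edgeR adjusted p = 1.24e-05). Reads of Slco1a5 may be shared with close copies in its family. Kcne2, a potassium channel subunit, was at 17.7 to 39.1 CPM against 5.85 to 9.18 CPM, likewise apart, with a fold change of 1.70 ± 0.119 (edgeR adjusted p = 1.2e-09). The bicarbonate transporter Slc4a5 (2.45), the potassium channel Kcnj13 (1.99), the cation channel Trpv4 (1.84) and the carbonic anhydrases Ca12 (1.14) and Car2 (0.78) were also higher with no overlap.

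Not every transport gene went with Ttr. Slc12a2, the sodium, potassium and chloride cotransporter, was at 73.0 to 111 CPM in the rich set and 68.9 to 103 CPM in the poor set (fold change -0.03 ± 0.0734, edgeR adjusted p = 0.794). It is also used by neurons and glia. Lrp2, the endocytic receptor megalin, was the member called lower, at 4.78 to 11.03 CPM against 8.34 to 20.2 CPM, a fold change of -0.75 ± 0.139 (edgeR adjusted p = 0.000454), with overlapping ranges.

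Of 25 tested genes for secreted proteins and receptors, 20 were higher, 1 was lower and 7 did not overlap, with a median of 0.89. Sostdc1, a secreted antagonist of BMP and Wnt signalling, was at 17.8 to 41.98 CPM in the rich set (median 25.5) and at 2.62 to 10.7 CPM in the poor set (median 6.06), a fold change of 2.18 ± 0.188 (edgeR adjusted p = 2.99e-08). Tf, which encodes the iron carrier transferrin, was at 16.3 to 53.9 CPM against 1.101 to 11.7 CPM, a fold change of 2.08 ± 0.257 (edgeR adjusted p = 5.54e-06). Enpp2, the enzyme autotaxin that makes lysophosphatidic acid, was higher by 1.63 and Ace, angiotensin-converting enzyme, by 1.04, both with no overlap.

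Clu, the secreted chaperone clusterin, was at 228 to 364 CPM against 102 to 187 CPM, a smaller fold change of 0.92 ± 0.0984 (edgeR adjusted p = 1.11e-06) with no overlap. Igfbp2 (0.89) and Igf2 (0.97), a growth factor binding protein and a growth factor of the stroma and epithelium, were called higher with overlapping ranges. Ptgds, the prostaglandin D synthase of meninges and choroid plexus, was not called (0.69 ± 0.372, edgeR adjusted p = 0.152). Vegfa, the vascular growth factor, was the member called lower (-0.36 ± 0.111, edgeR adjusted p = 0.0155).

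Among 13 tested genes of junctions and keratins, 9 were higher, 1 was lower and 2 did not overlap, with a median of 0.59. Cldn2, the claudin of leaky epithelia, was at 8.79 to 31.48 CPM in the rich set and at 0.759 to 5.11 CPM in the poor set, a fold change of 2.70 ± 0.272 (edgeR adjusted p = 4.6e-07). The keratin Krt8 was at 6.31 to 17.8 CPM against 1.70 to 4.37 CPM, a fold change of 1.92 ± 0.179 (edgeR adjusted p = 1.02e-07). Tjp1, a junction scaffold of many cell types, was not called (0.04 ± 0.0663, edgeR adjusted p = 0.684), and the adhesion molecule Epcam was called lower (-0.48 ± 0.194, edgeR adjusted p = 0.0569).

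Of 10 transcription factors of the choroid plexus and dorsal midline, 6 were higher and none was lower, with a median of 0.51. Msx1, a homeobox factor of the dorsal midline, was at 15.005 to 33.1 CPM against 4.32 to 9.81 CPM, a fold change of 1.76 ± 0.132 (edgeR adjusted p = 2.91e-09) with no overlap. Otx2, which sets choroid plexus identity, was called higher (0.62 ± 0.203, edgeR adjusted p = 0.0211) with overlapping ranges, and the call was lost with 8 against 8 libraries. Lmx1a, a factor of the roof plate and cortical hem, had a fold change of -0.62 ± 0.363 (edgeR adjusted p = 0.188). Of 10 ligands of the dorsal midline tested, 4 were higher, among them Bmp6 (1.01), Bmp4 (0.74) and Bmp7 (0.65), all with overlap.

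**Figure D3:**
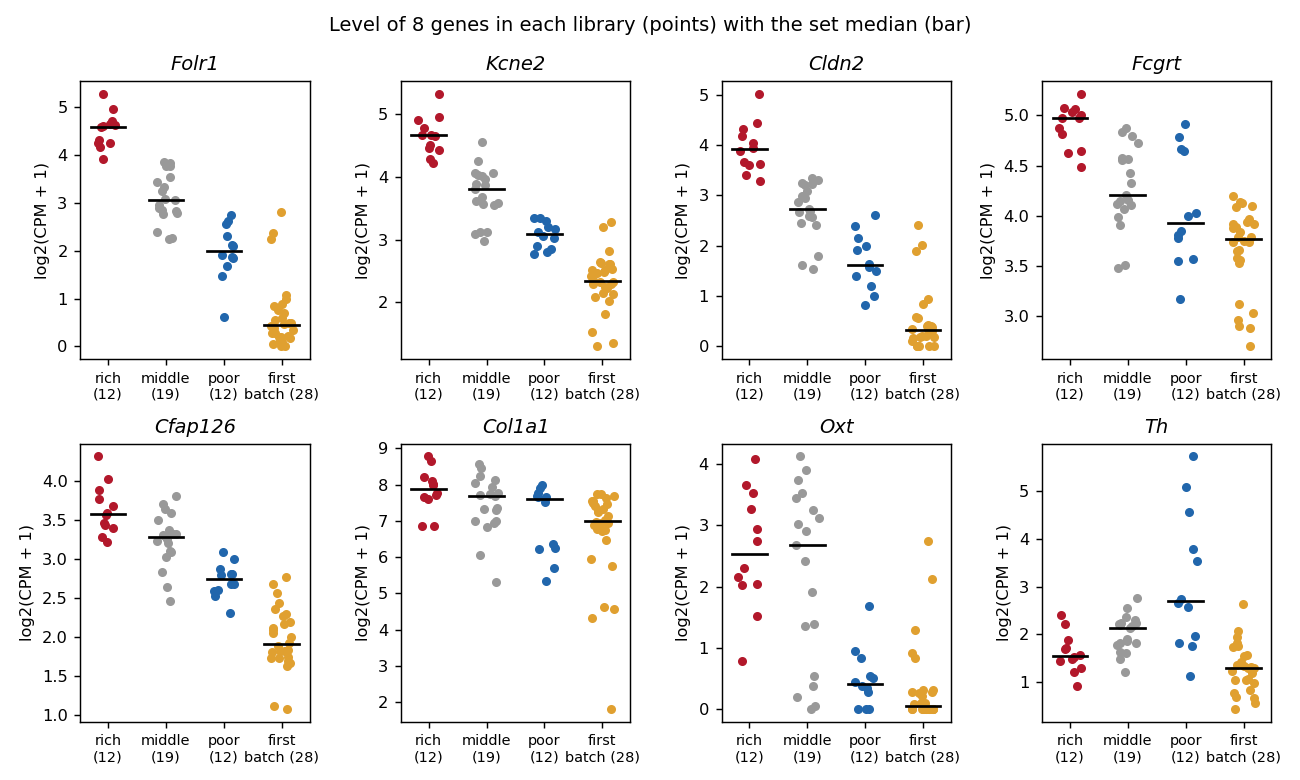
Level, as log2(CPM + 1), of 8 genes in each library of the rich (12), middle (19), poor (12) and first-batch (28) libraries, with 1 point per library and a bar at the median of the set. The sets do not overlap for Folr1, Kcne2, Cldn2 and Cfap126, while Fcgrt, Col1a1, Oxt and Th overlap, the last with its highest values in the poor set (up to 51.5 CPM).

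Motile cilia genes were measured because choroid plexus and ependymal cells carry cilia. Of 21 tested, 13 were higher and 2 were lower, with a median of 0.50. Cfap126, a protein of the ciliary axoneme, was at 8.29 to 18.9 CPM against 3.96 to 7.54 CPM, a fold change of 1.01 ± 0.125 (edgeR adjusted p = 5.54e-06) with no overlap. The ciliary assembly genes Ccdc39 (-0.47) and Zmynd10 (-0.43) were called lower, and the call of Zmynd10 was lost with litter as a random effect. Foxj1, the master regulator of motile cilia, was higher by 0.94 ± 0.157 (edgeR adjusted p = 0.000196).

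Among 22 genes of thyroid hormone and retinoid handling, Ttr left out, 10 were higher and 2 were lower, with a median of 0.28. Stra6, the receptor that takes up retinol from its carrier, was at 7.74 to 19.7 CPM against 3.83 to 7.56 CPM, a fold change of 0.95 ± 0.136 (edgeR adjusted p = 3.79e-05) with no overlap. Aldh1a2, a retinoic acid synthase of the meninges, was higher by 1.03, with overlap. Aldh1a1, a retinoic acid synthase that dopaminergic neurons express, was lower (-1.48 ± 0.426, edgeR adjusted p = 0.0105). Its poor-set maximum was 39.1 CPM beside a median of 5.27 CPM, and without CRMP1+GDA replicate 1 the fold change was -0.94. With litter as a random effect in limma voom the value was -1.11 and was not called.

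Of the 4 tested genes of IgG handling, 3 were higher, Fcgrt, B2m and Fcgr3a. Fcgrt encodes the neonatal Fc receptor that carries maternal IgG across barriers, and was at 21.4 to 36.2 CPM in the rich set (median 30.4) and at 7.97 to 29.2 CPM in the poor set (median 14.2). The fold change was 0.82 ± 0.164 (edgeR adjusted p = 0.000815), with overlapping ranges. Fcgr3a, an activating Fc receptor of myeloid cells (0.48), lost its call with litter as a random effect, with the label as a covariate and with 8 against 8 libraries. B2m, the light chain of the neonatal Fc receptor, was higher by 0.46 ± 0.102 (edgeR adjusted p = 0.00182). Among 7 genes of the maternal antibody targets, Ldha (0.24) and Stip1 (0.11) were called higher and none lower, which is near the share of all genes called higher (21.8%).

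Other cell types moved with the sets. Of 16 genes of meninges and stroma 14 were higher and 1 was lower, with a median of 0.86 and summed levels of 876.2 to 2162 CPM in the rich and 345.9 to 1474 CPM in the poor set. Of 16 genes of endothelium and pericytes 13 were higher (median 0.46, sums of 455.9 to 661.3 against 293.2 to 582.4 CPM). Of 9 blood genes 7 were higher (median 0.59, sums of 980.9 to 2466 against 393 to 1528 CPM), and of 15 genes of microglia and macrophages 13 were higher (median 0.58, sums of 54.6 to 111.3 against 23.1 to 112.9 CPM). None of these 56 genes was without overlap, which is near the share of all genes (0.386% higher and 0.0985% lower). Examples are the stromal collagen Col1a1 (0.77), the endothelial claudin Cldn5 (0.57), the globin Hbb (0.84), whose reads may be shared with other globin genes, and the microglial receptor Csf1r (0.62). With control libraries only, 0, 3, 1 and 4 genes of these lists were called, all of them higher, against 962 of 12178 over all genes. The rich side of that fit was a single litter. The part of these cells in the differences of single genes was not tested.

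Genes of other regions of the slice were counted against the 21.8% higher and 21.9% lower of all genes. Of 9 midbrain and hindbrain genes 8 were lower in the rich set, with a median of -2.04 and sums of 7.23 to 69.9 against 17.05 to 190.8 CPM. Only 6 of the 9 also reached 1 CPM in at least 13 of the 24 libraries, so that the other 3 entered through the set in which they were high, and all 6 were lower. Th, the enzyme of dopamine synthesis, was at 0.887 to 4.34 CPM against 1.19 to 51.5 CPM (-2.51 ± 0.496, edgeR adjusted p = 0.000778), and 5 poor libraries lay above 10 CPM. Of 15 thalamic genes 6 were lower and 2 higher (median -0.32), and of 17 genes of hippocampus and cortical hem 6 were lower and 3 higher (median -0.21). Of 16 hypothalamic genes 5 were higher and 1 was lower (median 0.30), and of the 13 that reached 1 CPM in at least 13 libraries 3 were higher and 1 was lower (median 0.22), a share close to that of all genes. Oxt, the oxytocin gene, was at 0.720 to 15.95 CPM in the rich set and at 0 to 2.21 CPM in the poor set (3.70 ± 0.575, edgeR adjusted p = 9.53e-05), so that the ranges overlapped. It passed the filter through the rich set.

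Lists of other regions and cells had medians near 0. The median was 0.07 for 15 cortical genes, of which 2 were lower, 0.02 for 14 genes of radial glia and proliferation, of which 4 were higher, and -0.06 for 9 genes of the oligodendrocyte lineage, of which 3 were lower. It was 0.08 for 17 striatal genes (7 higher, 1 lower) and -0.12 for 9 genes of habenula and pineal gland (1 higher, 2 lower). The 7 striatal genes, among them Adora2a (1.49) and Ppp1r1b (1.14), were a larger share than the 21.8% of all genes. The sign of the median changed under some alternatives for these lists other than the striatal, and for the hippocampal and thalamic lists. Of 12 genes named by the study, Mfrp (2.58), Sav1 (0.25) and Efna2 (0.22) were higher and Kiaa0408L (-0.24) was lower. These 12 genes were chosen by the study on these samples, and 3 of 12 is near the 21.8% of all genes.

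**Figure D4:**
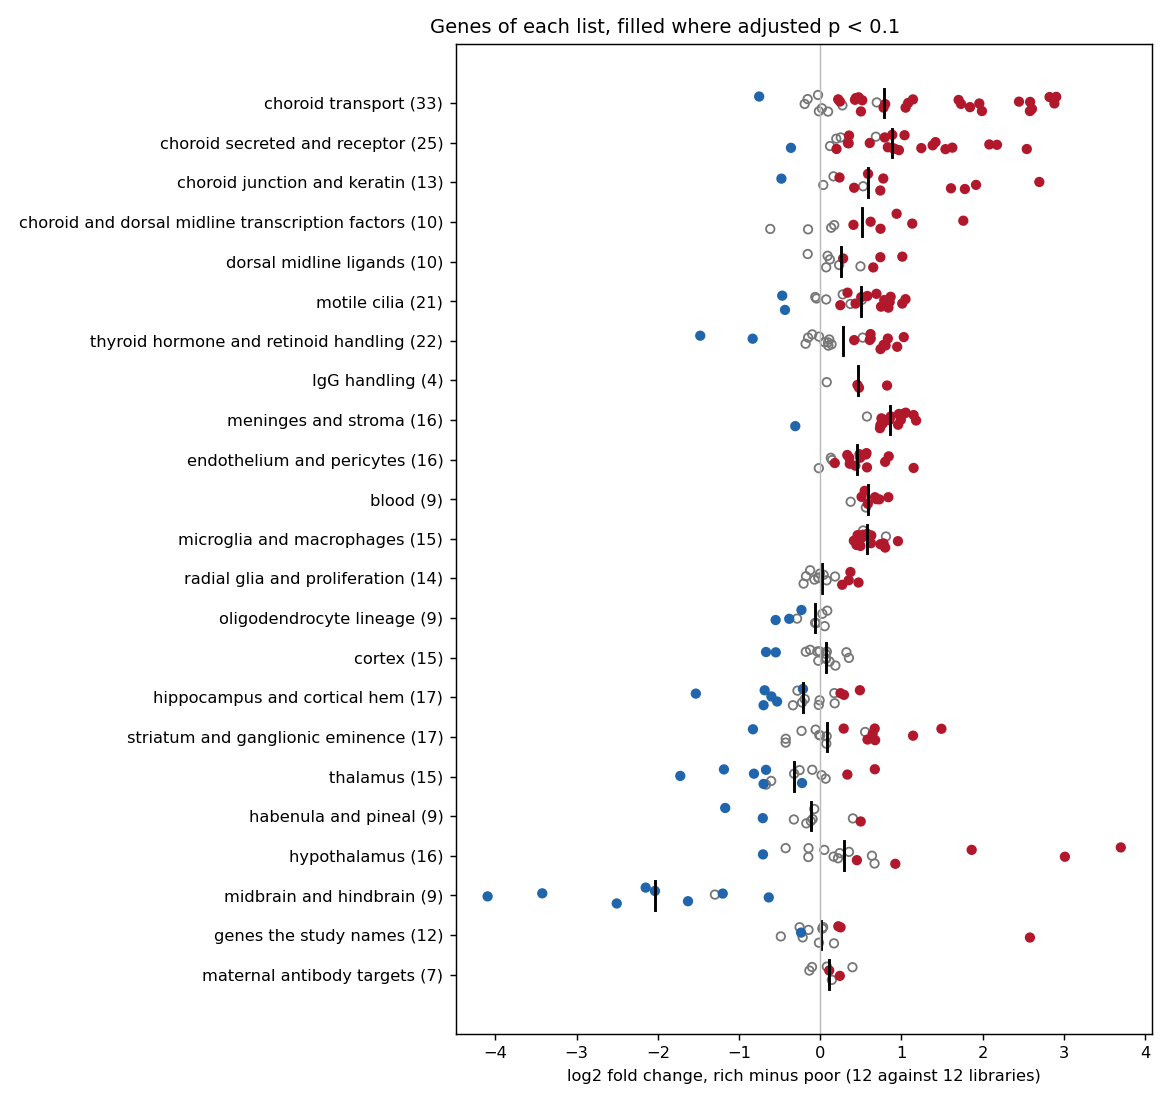
Log2 fold change, rich minus poor (12 against 12 libraries), of each tested gene of the lists, with the number tested in parentheses and a black bar at the list's median. Filled points passed an adjusted p of 0.1, red for higher and blue for lower, and open points did not. Medians run from 0.89 in the choroid secreted and receptor list to -2.04 in the midbrain and hindbrain list.

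Outside the lists, the 12 genes with the largest called increases among those with a mean of at least 5 CPM were next. Slc5a5, the sodium and iodide symporter, was at 7.06 to 18.3 CPM against 1.15 to 5.60 CPM (1.80 ± 0.226, edgeR adjusted p = 6.49e-06). Sod3, extracellular superoxide dismutase, was at 10.006 to 28.2 CPM against 2.20 to 7.40 CPM (1.70 ± 0.202, edgeR adjusted p = 3.66e-06). Mmp2, a matrix metalloproteinase (1.30), and Igsf1, a membrane glycoprotein (1.2), were likewise without overlap. The other 8 were RT1-CE16 (1.71), whose reads may be shared with other RT1 genes, Gsta1 (1.47), Serpinb1a (1.30), Myo5c (1.26), Frem1 (1.25), Colec12 (1.24), Scara5 (1.23) and Col13a1 (1.22). Of the 12, RT1-CE16, Colec12, Scara5 and Col13a1 had a slope on Ttr that was not called with litter as a block (described further on).

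The 12 genes with the largest called decreases by the same rule all overlapped between the sets. Slc6a5, the glycine transporter of inhibitory hindbrain neurons, was at 0.285 to 8.89 CPM in the rich set and at 0.408 to 77.0 CPM in the poor set (-3.03 ± 0.862, edgeR adjusted p = 0.00971). Ebf3, a transcription factor, was at 2.38 to 34.5 CPM against 8.01 to 97.3 CPM (-2.10 ± 0.377, edgeR adjusted p = 0.000362). Sspo, which encodes the SCO-spondin secreted by the subcommissural organ, was at 0.133 to 13.7 CPM against 5.00 to 48.7 CPM (-1.91 ± 0.528, edgeR adjusted p = 0.00808). The others were Mir770 (-1.85), Vof16 (-1.75), Mab21l2 (-1.68), Snhg11 (-1.45), RGD1566401 (-1.45), Cdh23 (-1.45), Lnc215 (-1.40), Shox2 (-1.28) and Tfap2b (-1.26). Tfap2b lost its call without any of 3 single libraries, LDHA/B+CRMP1+STIP1 replicate 1, CRMP1+CRMP2 replicate 3 or control replicate 5. Of the 12, only Ebf3, Mab21l2 and Tfap2b had a slope on Ttr that was called with litter as a block (described further on).

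Lower genes without overlap changed less. Of these 12, 4 are named here, chosen after their values were seen. Col2a1, the cartilage collagen, was at 8.20 to 30.72 CPM against 30.74 to 53.1 CPM (-1.13 ± 0.186, edgeR adjusted p = 0.000168), but its slope on Ttr was 0.04 with litter as a block. Ptpru, a receptor phosphatase, was at 47.3 to 64.3 CPM against 67.1 to 90.3 CPM (-0.51 ± 0.0592, edgeR adjusted p = 2.85e-06). The neuronal phosphatase Ptpn5 (-0.48) and the potassium channel Kcnd3 (-0.59) were also of this kind. With litter as a block the slopes of Ptpru, Ptpn5 and Kcnd3 were not called either. They were -0.05 (edgeR adjusted p = 0.521), -0.09 (edgeR adjusted p = 0.127) and -0.04 (edgeR adjusted p = 0.651).

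Because littermates were often in the same set, the slope of each gene on log2(Ttr CPM + 1) was also fitted within litters, over the 43 second-batch libraries with litter as a block and sex as a covariate. A slope of 1 means that a gene doubles when Ttr doubles. Within litters 251 genes rose with Ttr (2.06%) and 105 fell (0.862%), against 2259 and 2473 without the block. Of the 81 epithelial genes 35 rose and 0 fell, among them Mfrp with a slope of 0.99 ± 0.0569 (edgeR adjusted p = 3.00e-12), Folr1 with 0.87 ± 0.0564 (edgeR adjusted p = 2.56e-11) and Sostdc1 with 0.70 ± 0.0382 (edgeR adjusted p = 1.41e-12).

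The lists of meninges and stroma, blood, and microglia and macrophages had 0 genes called by edgeR within litters, and endothelium and pericytes had 2. At an unadjusted p under 0.05, 911 of all 12178 genes rose and 815 fell. Of these lists, 6 of 16 genes of meninges and stroma rose and 1 fell. Of blood 2 of 9 rose, of endothelium and pericytes 9 of 16, and of microglia and macrophages 0 of 15. Their median slopes were nevertheless 0.30 for meninges and stroma, 0.15 for blood, 0.10 for microglia and macrophages and 0.13 for endothelium and pericytes. Of 9 midbrain and hindbrain genes 4 fell within litters. Fcgrt was not called (0.13, edgeR adjusted p = 0.467), and neither were Col1a1 (0.31, edgeR adjusted p = 0.386) and Otx2.

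Slopes were also fitted separately in libraries of neither set, although many middle libraries had littermates in the rich or poor set. The 19 middle libraries come from the same order by Ttr, which narrowed their range of Ttr, whereas the 28 first-batch libraries were not ordered. In the middle libraries 10 genes rose with Ttr (0.0821%) and 0 fell, with 293 rising (2.41%) and 123 falling (1.01%) at an unadjusted p under 0.05. The 10 were Folr1, Kcne2, Sostdc1, Aqp1, Clu and Krt8 of the epithelial lists, Cfap126 of the cilia list, and Dynlrb2, Deup1 and Sod3, a ciliary dynein chain, a centriole assembly protein and the dismutase above. All 10 were also higher in the rich set.

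The middle slope of Folr1 was 1.00 ± 0.162 (edgeR adjusted p = 0.0131), that of Kcne2 was 0.77 ± 0.119 (0.0131) and that of Sostdc1 was 0.87 ± 0.140 (0.0131). These 3 kept their call in each of the 19 fits that left out 1 library, and the other 7 lost theirs in at least 1 fit, in which 4 to 19 genes were called. The slope of Mfrp was 0.72 ± 0.159 and was not called (edgeR adjusted p = 0.141). With the autoantibody label as a further covariate, 0 genes were called by edgeR in the middle libraries (398 rising and 219 falling at an unadjusted p under 0.05). Without the 5 middle libraries with Tph1 over 1 CPM, 0 were called either (320 rising and 382 falling at an unadjusted p under 0.05), and with DESeq2 28 rising genes were called.

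In the first batch 10 genes rose with Ttr (0.0821%) and 0 fell, with 281 rising (2.31%) and 341 falling (2.8%) at an unadjusted p under 0.05. The 10 were Mfrp, Kl, Clic6, Cldn2, Slco1a5, Cldn1, Folr1 and Sostdc1 of the epithelial lists, together with Klk4, a secreted protease, and Mab21l4. The slope of Mfrp was 0.81 ± 0.0975 (edgeR adjusted p = 3.35e-05), that of Slco1a5 was 0.87 ± 0.126 (0.000405) and that of Folr1 was 0.44 ± 0.0927 (0.0597). All 10 were also higher in the rich set, and Folr1 and Sostdc1 were called in the middle libraries as well.

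The first-batch calls rested on 3 libraries, all LDHA/B+CRMP1+STIP1 and 2 of them littermates, with Ttr at 225.4, 389.5 and 525.6 CPM. Without these 3 libraries 0 genes were called by edgeR (190 rising and 211 falling at an unadjusted p under 0.05), and the slope of Mfrp was 0.50 ± 0.126 (edgeR adjusted p = 1.00). Leaving out single libraries gave 6 to 12 rising genes, and Mfrp, Kl, Clic6, Cldn2 and Slco1a5 were called in each of these 28 fits. These fits kept the filter of the 24 libraries. With the filter set on the first-batch libraries, 2 rising genes were called, both epithelial, in place of 10.

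Taken by list, the 81 epithelial genes had a positive slope in 69 cases in the middle libraries and in 70 in the first batch, against 6328 and 5817 of 12178 genes. At an unadjusted p under 0.05, 32 of the 81 rose in the middle libraries and 28 in the first batch, and 0 fell in either, against 2.41% and 2.31% rising over all genes. Median slopes were 0.20 in the middle libraries and 0.05 in the first batch. Genes of meninges and stroma, endothelium, blood and microglia, of which 47 of 56 were higher in the rich set, had median middle slopes of -0.03, 0.00, 0.04 and 0.03, and 1 of the 56 rose at an unadjusted p under 0.05. Whether these lists differed in slope between the sets and the middle libraries was not tested as a list. Gene by gene, edgeR's interaction test over the 43 libraries called 0 of 12178 slopes higher and 0 lower in the 24 than in the middle libraries. At an unadjusted p under 0.05 the counts were 126 and 134.

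**Figure D5:**
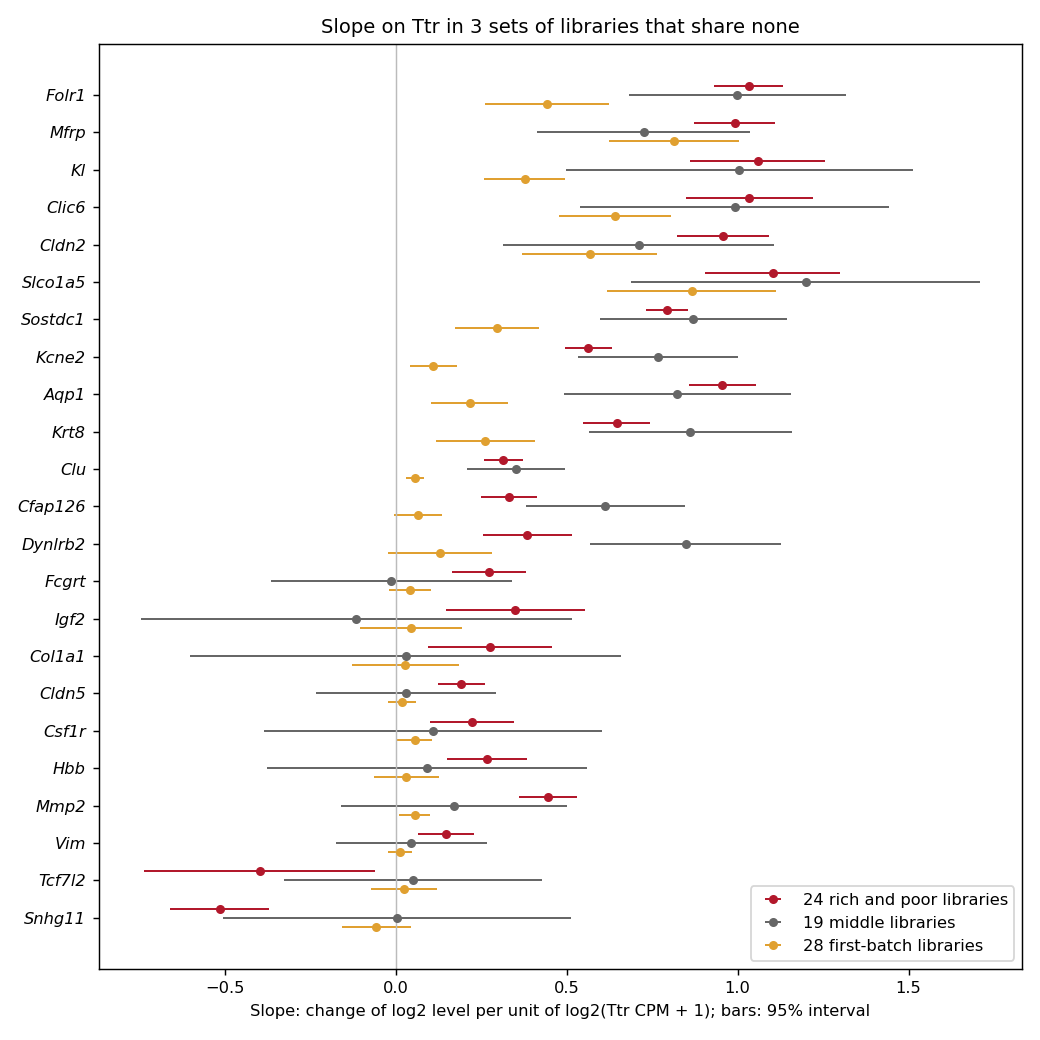
Slope of 23 genes on log2(Ttr CPM + 1) in the 24 rich and poor, the 19 middle and the 28 first-batch libraries. These share no library, but many middle libraries have littermates in the rich or poor set. Points are edgeR estimates and bars 95% intervals. Epithelial genes such as Folr1 and Mfrp lie to the right of 0 in all 3, and Col1a1, Cldn5, Csf1r and Hbb have intervals that include 0 in the middle libraries. By edgeR's interaction test 0 genes were called for a slope that differed between the 24 and the middle libraries.

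Slopes differed between the batches for many genes. By edgeR's interaction test over the 71 libraries, 932 genes (7.65%) had a higher and 1029 (8.45%) a lower slope in the second batch. Of the 81 epithelial genes 44 had a higher and 2 a lower slope in the second batch. Folr1 had a slope higher by 0.53 ± 0.111 (edgeR adjusted p = 0.00157), while that of Mfrp differed by -0.06 ± 0.0996 (edgeR adjusted p = 0.734). Ttr was low in the first batch, with a median of 14.74 CPM, and batch, Ttr range and the litters drawn cannot be told apart in this difference.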

How the data were processed

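The authors aligned paired-end reads of polyadenylated RNA to the rat build rn7 with STAR 2.5.4b and counted them with featureCounts. The deposited table holds whole-number counts for 17494 genes and 71 libraries, beside each gene's exon length (in bases, as deposited), and 0 columns without a sample. Among counts from 1 to 9, 74.5% were even, so halving all counts was tried. Label, litter and sex came from the labels.

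CPM was the count scaled to the library total. Counts were tested in R 4.3.3 with edgeR 4.0.16 (TMM scaling, robust quasi-likelihood test with a trended dispersion, Benjamini-Hochberg adjustment), with sex as a covariate, over 12178 genes, Ttr left out, that reached 1 CPM in 8 or more of the 24 libraries. The same genes were used for the slopes. Single values were tested by permutation in Python 3.11.15, and the make-up by sex with Fisher's exact test in SciPy 1.17.1. Pups were treated as replicates, and litter as a random effect or as a block was an alternative. The closest pair of libraries differed by more than sampling noise.

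The sets, gene lists and tests were chosen with earlier results of these data known. Named genes are Mfrp, Folr1, list members, and the 12 called genes with the largest change in each direction with a mean of at least 5 CPM and in no list. The symbols Car12, Car14, Trp73 and Tac2 were matched as Ca12, Ca14, Tp73 and Tac3. Alternatives were other scalings and filters, DESeq2 1.42.0, limma 3.58.1 (voom with litter), a surrogate variable (sva 3.50.0), label as a covariate, other set sizes, ranking by Folr1, control libraries only, and leaving out litters, libraries and those with Tph1 or Hoxb7 and Hoxb8. Simulated data with 200 changed genes were used to check the fits. For 12 against 12 libraries it found 197 of the 200 at a log2 change of 0.5, with 17 false calls among 214. For a slope of 0.5 in the middle libraries it found 181, with 12 false calls among 193. Littermates were simulated as independent. Every simulated gene was given the same dispersion, so these shares do not hold for genes that varied more between libraries.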

Additional observations from a re-analysis of the deposited data

Results flagged for a closer look

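Of 16 groups examined for a value far from the rest, 2 held one, and chance alone gives such a value in about 1 in 20 groups. Folr1 was at 37.99 CPM in the highest of the 8 CRMP1+CRMP2 libraries, with the next at 18.05 CPM. Over the 4 CRMP1+CRMP2 litters, the highest litter mean of Folr1 was 4.571 as log2(CPM + 1), with the next at 3.173. That litter held the same library, CRMP1+CRMP2 replicate 2, which also had the highest Ttr and Tph1 at 188.8 CPM. The 2 values are thus not separate, and the share of 1 in 20 holds only for groups that do not overlap.

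Slopes on Ttr that differed between the batches by edgeR's interaction test numbered 932 higher and 1029 lower in the second batch. Of the 18 genes that rose with Ttr in the middle or the first-batch libraries, 13 had a higher slope in the second batch. Over all genes 7.65% did. The 18 were chosen on libraries that this test also used, and the middle libraries, in which 10 of them rose, belong to the second batch. The count of 13 is therefore only a description. The difference in slope was 0.72 for Aqp1, 0.65 for Kl, 0.53 for Folr1, 0.52 for Sod3, 0.50 for Sostdc1, 0.46 for Kcne2, 0.45 for Cldn1, 0.40 for Krt8, 0.36 for Cldn2, 0.36 for Clic6, 0.28 for Cfap126, 0.28 for Dynlrb2 and 0.25 for Clu.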

How the results depend on the processing

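Over the other alternatives 1825 to 3001 genes were higher and 1984 to 3075 lower in the rich set. With the 7 control libraries of the sets, the rich ones littermates, the counts were 962 and 1400. With the slope in 43 libraries and litter as a block, added after seeing the data, they were 251 and 105. In that fit the slope had the opposite sign for Col2a1 (0.03857), Efna2 (-0.003957), Fcgr3a (-0.09181), Foxp2 (0.01704), Stip1 (-0.001374) and Zmynd10 (0.01754). Leaving out each library gave 2244 to 2842 higher and 2353 to 2977 lower genes. In the middle libraries, rising genes numbered 28 with DESeq2, 0 with label as a covariate and 0 without libraries with Tph1, and 4 to 19 rising and 0 to 1 falling when each library was left out. In the first batch, rising genes numbered 2 with the filter set on its own libraries and 0 without the 3 libraries of highest Ttr, a setting added after seeing the data. Falling genes there numbered 2 with DESeq2, 3 with label as a covariate and 2 with limma voom and litter as a random effect. Leaving out each library gave 6 to 12 rising and 0 to 3 falling genes. The causes were not tested. The difference between exposed and control litters ran from 0.0295 to 0.905 for Folr1 and from 0.244 to 1.18 for Mfrp when each litter was left out. No paired analysis was possible because the labels give no replicate numbers that groups share; the litter block is the nearest fit. No value is given for the first batch without Tph1 libraries, since none exceeded 1 CPM. Over the 136 genes followed, 5703 of 5978 values kept their status, either called or not called. A call was lost in 268 values and gained in 1, and 6 values, given above, reversed. Depth limits genes near 1 CPM, and littermates make p-values over pups too small.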
